A study of Homo sapiens with 4 samples.

Results

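The factors of nonsense-mediated mRNA decay (NMD) described here are the 9 UPF and SMG genes *UPF1*, *UPF2*, *UPF3A*, *UPF3B*, *SMG1*, *SMG5*, *SMG6*, *SMG8* and *SMG9*. They were taken as the rows of the deposited tables that carry these gene symbols, which gave 9 of 20457 listed features. All 9 passed the filter on low values (a mean of at least 1 TPM over all libraries, where TPM is an abundance corrected for gene length and brought to the same total in every library). That filter kept 14208 features for the test. RNA was sequenced from HEK293, a widely used human cell line of embryonic kidney origin, whose genotype is labelled wild type in both groups. The cells received 10 nM siRNA for 72 h, either a negative control siRNA (siControl, 2 libraries) or siRNA against *CNOT4* (siCNOT4, 2 libraries). *CNOT4* encodes a RING-finger E3 ubiquitin ligase that binds the CCR4-NOT deadenylase complex, and the design text names codon usage and its effect on expression as the subject. No label states that replicates came from separate cultures, so p-values measure the spread between these samples, which may be technical.

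NMD degrades mRNAs on which translation ends too early, for example at a premature stop codon upstream of an exon junction. UPF1 is the RNA helicase at its centre, UPF2 and the UPF3 proteins join it to the exon junction complex, and the kinase SMG1, held in a complex with SMG8 and SMG9, phosphorylates UPF1. Phosphorylated UPF1 then recruits SMG6, an endonuclease, and SMG5, which links to decapping and deadenylation.

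The targeted transcript and the libraries were examined before the NMD factors. *CNOT4* TPM was 6.43 and 4.73 in siControl replicates 1 and 2 and 3.38 and 3.81 in siCNOT4 replicates 1 and 2. Both siCNOT4 libraries lay below both siControl libraries, but the difference missed the threshold on TPM as deposited (log2 fold change -0.51, SE 0.26, limma adjusted p 0.184) and passed it after TMM scaling (trimmed mean of M values; -0.98, limma adjusted p 0.0337). Read totals recovered from the tables were 28.9 to 31.4 in units of 1e6 reads per library. One library stood apart: in siControl replicate 2 the median tested feature lay 0.38 below siControl replicate 1 on the log2(TPM + 1) scale, against a median difference of -0.03 between the siCNOT4 replicates. The median log2 fold change of all tested features, siCNOT4 over siControl, was 0.50, and 81.2% of them had a positive value. TMM scaling, which assumes that most features are level between libraries, moved that median to -0.02 and the positive share to 48.6%. The fold changes below are therefore given as deposited and also relative to the median of all tested features. Of 7 genes listed as HEK293 markers, *NEFL*, *VIM*, *KRT8* and *KRT18* were abundant. *VIM* fell from 917 and 650 TPM in siControl to 369 and 354 TPM in siCNOT4 (limma adjusted p 0.0288), and *INA* rose from 9.6 and 5.62 TPM to 18.9 and 20.8 TPM (adjusted p 0.0496). For the other markers of this list, *PAX2* reached 1.1 to 1.91 TPM and *NEFM* 0.412 to 0.916 TPM. The summed level of 3 blood markers was 0 to 0.327 TPM and of 3 hepatocyte markers 0.364 to 0.438 TPM. The 4 fibroblast genes summed to 1.13 and 1.62 TPM in siControl and to 9.08 and 9.49 TPM in siCNOT4, where *COL1A1* and *LUM* rose, and the part of these markers in the results below was not tested.

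Across the 9 NMD factors, no mRNA passed the limma test on TPM as deposited at an adjusted p of 0.05, and 4 had an unadjusted p under that level: *SMG1*, *SMG5* and *SMG8* with higher values in siCNOT4, and *UPF3B* with a lower value. At the adjusted threshold, 11.3% of all tested features were called higher and 1.3% lower. These shares are no background for the count of 4 by unadjusted p, for which no share was computed. Unadjusted p-values that small were common, since the limma p of 0.0400 for *UPF3B* became 0.106 on adjustment over all tested features. *UPF3B* was the only factor with a negative fold change and the only one whose test was passed after TMM scaling, where it fell. The other 8 had positive fold changes, with a median over all 9 of 0.52 against 0.50 for all tested features. In 8 factors both siCNOT4 libraries lay above both siControl libraries, an arrangement found in 66.4% of all tested features. In *UPF3B* both lay below, as in 10.6% of all tested features. In bulk RNA of this kind, fewer cells of a type and less RNA per cell cannot be told apart.

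**Figure D1:**
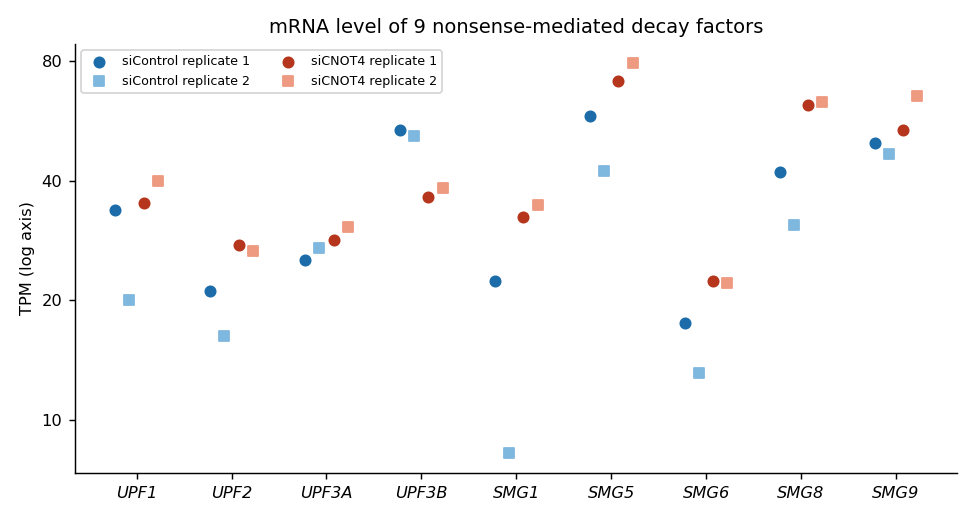
TPM of each NMD factor (x axis) in each of the 4 libraries (y axis, log scale), with siControl in blue, siCNOT4 in red, circles for replicate 1 and squares for replicate 2. *UPF3B* is the factor with both siCNOT4 points below both siControl points, and *SMG1* shows the widest gap between the siControl replicates, 22.4 against 8.23 TPM.

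The helicase gene *UPF1* lies on chromosome 19 (18831938 to 18868236, + strand; all positions are GENCODE 29, GRCh38, while the tables were made on hg19). The siControl replicates had 33.8 and 20.1 TPM and the siCNOT4 replicates 35.1 and 40.1 TPM. The siCNOT4 libraries were above both controls, but the higher control was closer to them than to the other control. The log2 fold change was 0.51 (SE 0.29, limma adjusted p 0.222), 0.01 above the median of all tested features. Leaving out the lower control gave 0.15, and leaving out the higher one gave 0.87 (adjusted p 0.000595). After TMM scaling the 4 values were 35.6, 28.5, 29.1 and 32.4 TPM, and the groups overlapped.

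*UPF2*, the adaptor between UPF1 and the UPF3 proteins, lies on chromosome 10 (11920022 to 12043170, - strand). Its level was 21.2 and 16.3 TPM in siControl and 27.6 and 26.6 TPM in siCNOT4. The groups did not overlap, and the siCNOT4 libraries were closer together than the controls. The log2 fold change was 0.52 (SE 0.25, limma adjusted p 0.155), 0.02 above the median of all tested features, and it was 0.34 without siControl replicate 2 (adjusted p 0.0235). After TMM scaling all 4 libraries lay between 21.5 and 23.2 TPM.

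The UPF3 paralogs connect UPF2 to the exon junction complex; UPF3B is the more active in NMD in most settings and UPF3A the weaker partner. *UPF3B* lies on chromosome X (119805311 to 119852998, - strand) and *UPF3A* on chromosome 13 (114281584 to 114305817, + strand). Their coding sequences have 483 and 476 codons. Of 436 codons that aligned, 222 encoded the same residue (50.9%), and 115 of those differed by a synonymous change. The stretch of 120 coding bases below, from transcripts of GENCODE 29, shows how the 2 mRNAs encode similar protein with different codons, which bears both on the codon subject of the study and on how reads are told apart. The first covers codons 113 to 152 of *UPF3A* (transcript ENST00000375299.7) and the second codons 96 to 135 of *UPF3B* (transcript ENST00000276201.6), and capitals mark the bases at the last codon position that differ between them.
UPF3A: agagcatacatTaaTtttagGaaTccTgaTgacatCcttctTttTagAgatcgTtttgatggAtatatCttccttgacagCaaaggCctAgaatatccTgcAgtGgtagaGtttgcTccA
UPF3B: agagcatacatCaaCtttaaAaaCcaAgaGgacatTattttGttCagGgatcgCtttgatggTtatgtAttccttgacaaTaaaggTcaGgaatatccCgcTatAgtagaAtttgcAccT
In this window 32 of 40 residues were identical, 22 bases at the last codon position differed, and 15 of these differences lay in codons for the same residue. The last base was G or C in 11 of 40 codons of *UPF3A* and in 14 of 40 codons of *UPF3B*. Over the whole coding sequences the order was the other way round, with G or C at that base (GC3) in 54.5% of *UPF3A* codons and 40% of *UPF3B* codons. Among the synonymous differences of the whole alignment, 60 had G or C in *UPF3A* against A or T in *UPF3B*, and 33 the reverse.

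*UPF3B* was measured at 53.9 and 51.8 TPM in siControl (52.9 ± 1.43, mean ± SD, n = 2) and at 36.4 and 38.4 TPM in siCNOT4 (37.4 ± 1.40, n = 2). The ratio of the means was 0.708, and the gap between the groups was wider than that within either. These values rested on 1678, 1833, 1081 and 1126 reads in the order of the libraries. The 95% Poisson interval, which covers counting error only, was 49.5 to 54.3 TPM in the lower control and 36.2 to 40.7 TPM in the higher knockdown library. The log2 fold change was -0.49 (SE 0.19), with an unadjusted limma p of 0.0400 and an adjusted p of 0.106, and only 4.34% of tested features had a lower value. Relative to the median of all tested features *UPF3B* was 0.99 lower.

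Whether *UPF3B* passed the test depended on the scaling. After TMM scaling its values were 56.7 and 73.6 TPM in siControl and 30.2 and 31.1 TPM in siCNOT4, and it fell by 1.05 on the log2 scale (SE 0.18, limma adjusted p 0.0348). The background of that fit was 4.3% of tested features called higher and 5.59% called lower. In limma-voom on the recovered reads with TMM scaling it fell by 1.09 (adjusted p 0.0320), where 5.26% of tested features were called higher and 6.9% lower. It also fell after quantile normalization (-0.89, adjusted p 0.0281) and once the trend with gene length and GC content was removed (-0.99, adjusted p 0.0154). The quantile fit called 1010 of 14208 tested features higher and 1169 lower. The trend fit called 1512 of 13771 higher and 1633 lower. With library medians set equal the change was -1.05, with an adjusted p of 0.0559. The sign was negative in all 20 fits computed for *UPF3B*, from -1.24 to -0.45, and 8 of these passed the threshold. The fits reuse the same libraries and are not independent. Those that passed include the fits that left out either siControl library, with and without TMM scaling. Leaving out either siCNOT4 library lost the call under TMM scaling, with adjusted p of 0.152 without replicate 1 and 0.120 without replicate 2, while the values were -1.03 and -1.07.

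*UPF3A* gave 25.3 and 27.1 TPM in siControl and 28.4 and 30.7 TPM in siCNOT4. The groups did not overlap, but the lower siCNOT4 library exceeded the higher control by less than the gap between the controls. The log2 fold change was 0.17 (SE 0.22, limma adjusted p 0.560), 0.33 below the median of all tested features. After TMM scaling the value was -0.39 (adjusted p 0.231), with both siCNOT4 libraries (23.5 and 24.8 TPM) below both controls (26.6 and 38.5 TPM), so the direction of *UPF3A* depended on the scaling.

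The balance of the paralogs does not depend on the scaling of a library, since both are read from the same library and have recovered lengths of 2386 and 2404 nt. The ratio of *UPF3A* to *UPF3B* TPM was 0.469 and 0.523 in siControl, against 0.779 and 0.799 in siCNOT4. Both siCNOT4 libraries lay above both controls, and the log2 ratio differed by 0.67, or 1.59-fold, against gaps of 0.16 between the controls and 0.04 between the siCNOT4 libraries. As a share of the reads of both paralogs, *UPF3A* took 31.8% in siControl replicate 1 (95% Wilson interval 30.0 to 33.6) and 34.2% in siControl replicate 2 (32.4 to 35.9). In siCNOT4 the share was 43.6% in replicate 1 (41.4 to 45.8) and 44.2% in replicate 2 (42.1 to 46.4). The intervals of the groups did not meet. This pair was chosen with its values in view, and an exact two-sided permutation of 2 libraries against 2 cannot give a p below 0.333, so the ratio is a description.

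**Figure D2:**
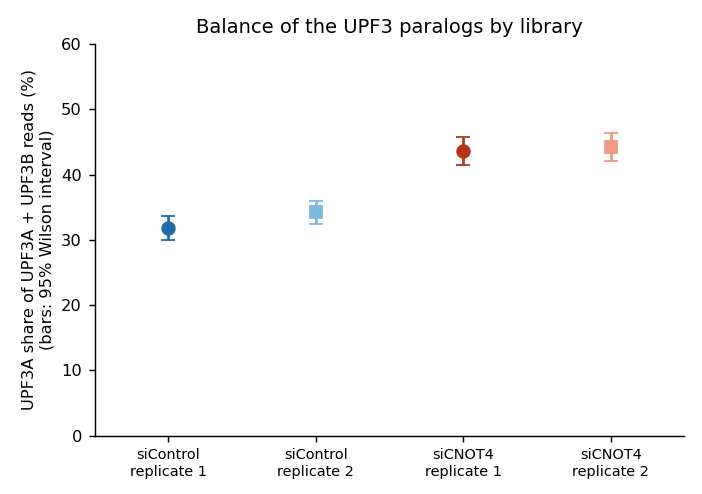
Reads of *UPF3A* as a percentage of the reads of *UPF3A* and *UPF3B* together (y axis) in each library (x axis), with bars for the 95% Wilson interval of counting error. The siControl libraries sit at 31.8% and 34.2% and the siCNOT4 libraries at 43.6% and 44.2%.

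Other ratios among the recognition factors were also taken. The ratio of *UPF2* to *UPF1* TPM was 0.626 and 0.814 in siControl, against 0.787 and 0.665 in siCNOT4, and the groups overlapped. The ratio of *UPF3B* to *UPF2* was 2.54 and 3.18 in siControl, against 1.32 and 1.44 in siCNOT4, lower in both siCNOT4 libraries. The recovered lengths of *UPF3B* and *UPF2* were 2404 and 5457 nt. Tested features under 2500 nt and of 5000 to 10000 nt had median log2 fold changes of 0.26 and 0.76. The part of length in this ratio was not tested. The ratios of this section are among 7 computed between members. An exact permutation test was run on each, but with 2 libraries a group it cannot give a p below 0.333, so all are descriptions.

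*SMG1*, the kinase that phosphorylates UPF1, lies on chromosome 16 (18804853 to 18926454, - strand). Its level was 22.4 and 8.23 TPM in siControl and 32.5 and 34.8 TPM in siCNOT4. The siCNOT4 libraries were above both controls, but siControl replicate 2 was far below replicate 1. The log2 fold change of 1.23 was the largest of the 9 (SE 0.45, unadjusted p 0.0311, limma adjusted p 0.0931). It was 0.73 above the median of all tested features, and 0.69 after TMM scaling (adjusted p 0.183). Without siControl replicate 2 it was 0.56, and without siControl replicate 1 it was 1.91. Near-identical copies of *SMG1* exist in the genome, and how the counting shared reads among them is not given in the sources used here. The 1 such copy in the tables, *SMG1P1*, had 0.0407 to 0.344 TPM, so the level of *SMG1* is uncertain.

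*SMG8* and *SMG9* encode the subunits that hold SMG1 in check. *SMG8*, on chromosome 17 (59209400 to 59215247, + strand), gave 42.0 and 31.0 TPM in siControl (36.5 ± 7.82, n = 2) and 62.1 and 63.2 TPM in siCNOT4 (62.6 ± 0.795, n = 2). The groups did not overlap, and the siCNOT4 replicates were closer together than the controls. The log2 fold change was 0.78 (SE 0.22, unadjusted p 0.0115), with a limma adjusted p of 0.0610, the smallest of the 9, and lay 0.28 above the median of all tested features. After TMM scaling the values were 44.2 and 44.0 TPM against 51.4 and 51.1 TPM, still without overlap, with a change of 0.21 (adjusted p 0.305). *SMG9*, on chromosome 19 (43727992 to 43754990, - strand), gave 49.9 and 46.7 TPM in siControl and 53.8 and 65.4 TPM in siCNOT4. Its siCNOT4 replicates differed from each other by more than the lower of them differed from the controls, and the log2 fold change was 0.29 (SE 0.20, limma adjusted p 0.280), 0.21 below the median of all tested features. It was 0.15 without siCNOT4 replicate 2.

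Within this kinase complex the levels did not keep the same proportions in every library. The ratio of *SMG1* to *SMG8* was 0.533 and 0.266 in siControl, against 0.523 and 0.550 in siCNOT4, so siControl replicate 2 alone was low. The ratio of *SMG8* to *SMG9* was 0.842 and 0.663 in siControl, against 1.15 and 0.967 in siCNOT4, higher in both siCNOT4 libraries by 0.50 on the log2 scale against a gap of 0.35 between the controls. The ratio of *SMG1* to *SMG9* was 0.449 and 0.176 in siControl, against 0.604 and 0.532 in siCNOT4, where the difference of 1.01 on the log2 scale was smaller than the 1.35 between the controls. Recovered lengths were 16065 nt for *SMG1*, 3266 nt for *SMG8* and 2353 nt for *SMG9*, the last uncertain. The part of length in these ratios was not tested.

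The members that act on the target mRNA are *SMG5* and *SMG6*. *SMG5*, on chromosome 1 (156249224 to 156282825, - strand), gave 58.4 and 42.5 TPM in siControl and 71.3 and 79.1 TPM in siCNOT4. The groups did not overlap, and the log2 fold change was 0.58 (SE 0.22, unadjusted p 0.0359, limma adjusted p 0.1), 0.08 above the median of all tested features. *SMG6*, the endonuclease, on chromosome 17 (2059839 to 2303771, - strand), gave 17.5 and 13.2 TPM in siControl and 22.3 and 22.2 TPM in siCNOT4. The siCNOT4 libraries were nearly level with each other and above both controls, and the log2 fold change was 0.52 (SE 0.26, limma adjusted p 0.173), 0.02 above the median of all tested features. Without siControl replicate 2 the changes were 0.36 for *SMG5* (adjusted p 0.0197) and 0.33 for *SMG6* (adjusted p 0.0297). After TMM scaling they were 0.01 for *SMG5* and -0.03 for *SMG6*, and the groups of both genes overlapped. The ratio of *SMG5* to *SMG6* was 3.33 and 3.23 in siControl, against 3.19 and 3.56 in siCNOT4, which overlapped.

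**Figure D3:**
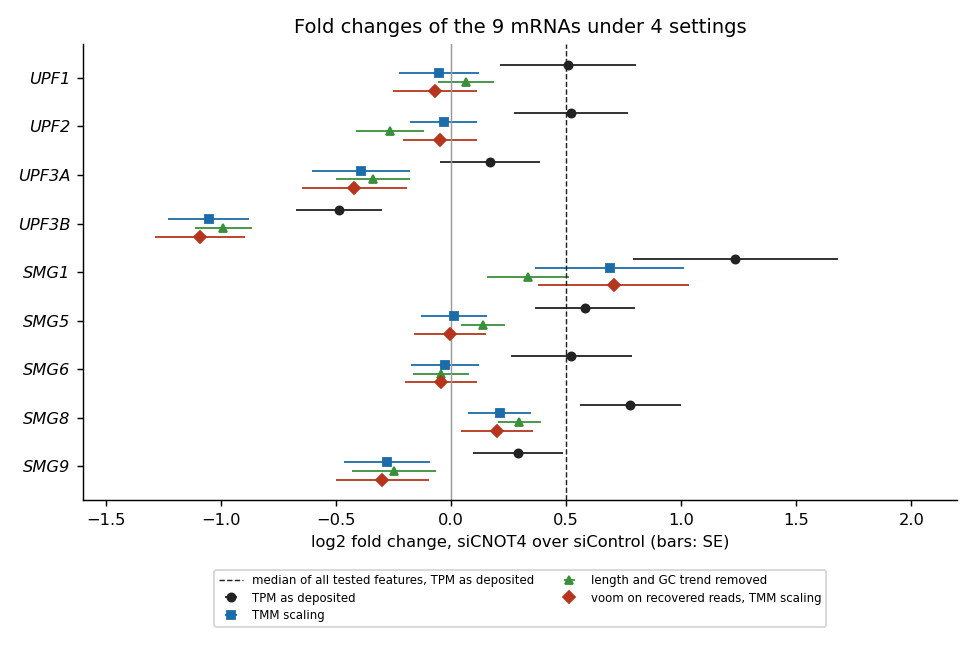
Log2 fold change, siCNOT4 over siControl (x axis, bars show SE), of each NMD factor (y axis) on TPM as deposited, after TMM scaling, with the length and GC trend removed, and in limma-voom on recovered reads with TMM scaling; the dashed line is the median of all tested features on TPM as deposited. *UPF3B* is negative in every setting shown, from -1.09 to -0.49, while *UPF1*, *UPF2*, *UPF3A*, *SMG5*, *SMG6* and *SMG9* change sign in at least 1 of them.

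TMM scaling therefore left 3 positive and 6 negative fold changes among the 9, with a median of -0.03. The siCNOT4 libraries then lay above both controls in 2 factors, *SMG1* and *SMG8*, and below both in 2, *UPF3A* and *UPF3B*, with overlap in the other 5. The same arrangements were found in 33.1% and 36.6% of all tested features.

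Single libraries changed how many factors passed the test on TPM as deposited. Without siControl replicate 1, 8 factors passed (7 higher, and *UPF3B* lower), and without siControl replicate 2, 6 passed (5 higher, and *UPF3B* lower). Without either siCNOT4 library none passed. In the former fits the lone control library is assumed to vary like the siCNOT4 pair, whose replicates were closer together. The same fits called 11311 and 8171 of all tested features, against 1792 with all 4 libraries.

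Gene length moved with both the group difference and the gap between the controls. Recovered lengths ran from 2353 nt for *SMG9* to 16065 nt for *SMG1*, with a median of 3104 nt over tested features. Among all tested features under 2500 nt, the median log2 fold change was 0.26 and the median gap of siControl replicate 1 over replicate 2 was 0.07. For lengths of 2500 to 5000 nt these were 0.54 and 0.45, for 5000 to 10000 nt 0.76 and 0.73, and for 10000 nt and over 0.82 and 0.84. The NMD factors were spread over the same range, and 7 of the 9 lay between the quartiles of the fold changes of their length class. *SMG1* lay above (1.23, upper quartile 1.15) and *UPF3B* below (-0.49, lower quartile -0.10). Across the 9 factors the fold change had a Spearman rho of 0.667 with length, and the points share their 4 libraries. The recovered length of *SMG9* may be off by a whole factor, so its length class and this rho are uncertain. The gap between the controls was positive in 8 of 9 factors, with a median of 0.39, and was -0.10 in *UPF3A*. The part of length in the results for the factors was not tested beyond the fit with the length and GC trend removed, which gave 0.33 for *SMG1* (adjusted p 0.213) and 0.30 for *SMG8* (adjusted p 0.0779).

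**Figure D4:**
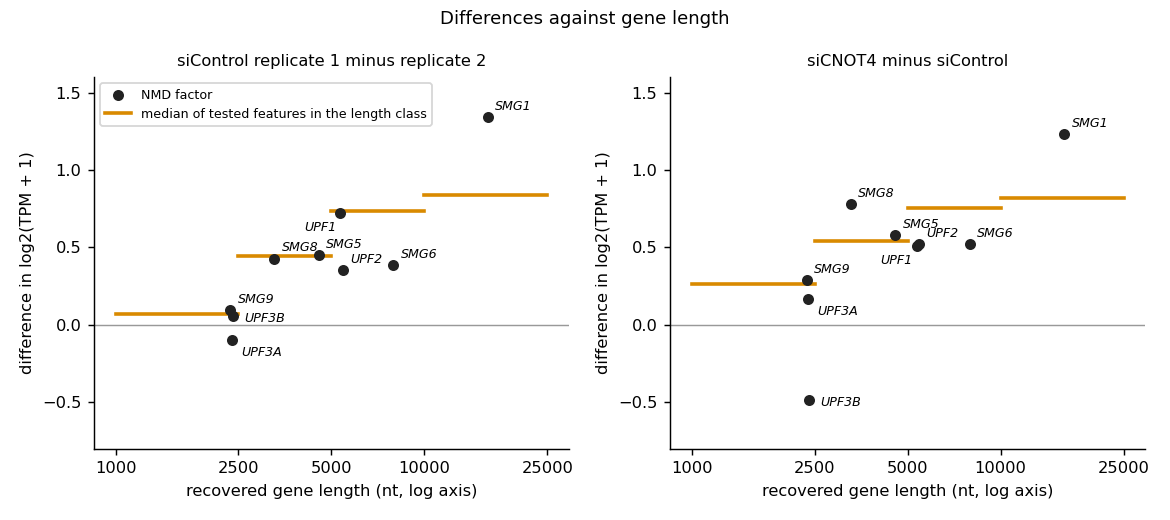
Difference in log2(TPM + 1) between the siControl replicates (left) and between siCNOT4 and siControl (right) on the y axes, against recovered gene length on a log axis, for the 9 NMD factors (points) and the medians of all tested features in 4 length classes (lines). Both differences are larger in longer genes, and *UPF3B* lies 0.49 below 0 on the right while it lies at 0.05 on the left.

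Codon usage differed widely among the factors. GC3 was 80% in *UPF1*, 66.7% in *SMG9*, 65.0% in *SMG5* and 59.9% in *SMG6*, all above the median of 58.9% over 12894 tested features with a coding sequence. It was 54.5% in *UPF3A*, 42.9% in *SMG8*, 40.9% in *SMG1*, 40% in *UPF3B* and 38.5% in *UPF2*. Factors of low GC3 thus held both the largest fold change (*SMG1*, 1.23) and the lowest (*UPF3B*, -0.49). Across the 9 the Spearman rho of fold change with GC3 was -0.067, over points that share their 4 libraries.

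TPM is corrected for length, so the levels of the factors can be set in order. In siControl the means ran from *UPF3B* (52.9 TPM), *SMG5* (50.4) and *SMG9* (48.3), which did not separate, through *SMG8* (36.5), *UPF1* (26.9) and *UPF3A* (26.2), which also overlapped with their neighbours, to *UPF2* (18.7), *SMG6* (15.4) and *SMG1* (15.3). Only the steps from *SMG9* to *SMG8* and from *UPF3A* to *UPF2* were free of overlap between libraries. In siCNOT4 *SMG5* came first (75.2 TPM), followed by *SMG8* (62.6) and *SMG9* (59.6), which overlapped. *UPF1* (37.6) and *UPF3B* (37.4) overlapped as well, and *SMG1* (33.6), *UPF3A* (29.5), *UPF2* (27.1) and *SMG6* (22.3) followed without overlap. *UPF3B* was thus the first of the 9 by mean level in siControl and the fifth in siCNOT4. By library its rank was 2 and 1 in siControl replicates 1 and 2, and 4 and 5 in siCNOT4 replicates 1 and 2. The summed level of the 9 was 324 and 257 TPM in siControl and 370 and 400 TPM in siCNOT4.

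The rest of the pathway was described with 6 lists, each by its count and its median. The background for these counts is again 11.3% of all tested features called higher and 1.3% called lower, and the small counts of genes that rose are near that share. Of 12 other NMD factors and helpers, 1 rose and none fell, with a median log2 fold change of 0.62; the median of all tested features was 0.50 as above. The gene that rose was *GNL2*, a nucleolar GTPase found in screens for NMD factors, at 119 and 107 TPM in siControl and 222 and 228 TPM in siCNOT4 (log2 fold change 0.99, or 0.49 above the median of all tested features, limma adjusted p 0.0252). Of 10 genes of the exon junction complex and its partners none was called. Their median was 0.13, all 10 lay below the median of all tested features, and 5 had both siCNOT4 libraries above both controls, against 66.4% of all tested features. None of 5 genes for release factors and poly(A)-binding proteins was called either, with a median of 0.67.

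Among 8 genes for decapping and exonuclease enzymes 1 rose and none fell, with a median of 0.99. It was *DCP2*, the decapping enzyme, at 28.5 and 14.9 TPM in siControl and 52.8 and 52.9 TPM in siCNOT4 (log2 fold change 1.31, or 0.81 above the median of all tested features, limma adjusted p 0.0496). The recovered length of *DCP2* was 10198 nt, and tested features of 10000 nt and over had a median of 0.82. With the length and GC trend removed *DCP2* was at 0.36 (limma adjusted p 0.0562), and the median of its list was 0.17. Of 12 genes for kinases related to SMG1 and their assembly factors 2 rose and none fell, with a median of 0.74. With the length and GC trend removed the median of these 12 was 0.05. *MTOR*, the growth-control kinase, was at 36.0 and 17.3 TPM in siControl and 77.8 and 79.0 TPM in siCNOT4 (1.61, or 1.11 above the median of all tested features, adjusted p 0.0423). *TTI2*, which helps these kinases to mature, was at 13.4 and 9.82 TPM in siControl and 25.3 and 27.5 TPM in siCNOT4 (1.13, or 0.63 above that median, adjusted p 0.0478). After TMM scaling no gene of these 5 lists was called higher, and *TELO2* (-1.18, adjusted p 0.0347) and *DCP1B* (-0.95, adjusted p 0.0328), named after their values were seen, fell. That fit called 4.3% of tested features higher and 5.59% lower. *MTOR* was called higher after quantile normalization (limma adjusted p 0.0297), with the trend removed (0.0165) and in voom with TMM scaling (0.0453). *GNL2* passed in the quantile (0.0255) and trend fits (0.0274), *DCP2* in the quantile fit (0.0369) and *TTI2* in the trend fit (0.0201). Over all 6 lists the quantile fit had 3 rises and 14 falls, and the trend fit 4 and 18. With equal medians none rose.

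The last list held 17 transcripts known to accumulate when NMD is blocked. Of these 6 fell and 1 rose, with a median of -0.41, and 15 lay below the median of all tested features. The background is 1.3% called lower and 11.3% called higher. *ATF4*, a transcription factor of the integrated stress response, was at 1005 and 1151 TPM in siControl and 358 and 352 TPM in siCNOT4 (log2 fold change -1.6, or -2.10 from the median of all tested features, limma adjusted p 0.0227). *GAS5*, a host gene of small nucleolar RNAs with a short open reading frame, was at 974 and 1211 TPM in siControl and 459 and 389 TPM in siCNOT4 (-1.36, or -1.86 from that median, adjusted p 0.0227). In both, every siCNOT4 library was far below every control. The host genes *ZFAS1* (-1.03), *SNHG15* (-0.98) and *SNHG1* (-0.94) fell too, with adjusted p of 0.0256, 0.0364 and 0.0272, and *SNHG5* was the sixth. Relative to the same median these 3 were at -1.53, -1.48 and -1.44. *GADD45B*, a stress-response gene, was the one that rose, from 12.7 and 12.9 TPM to 27.3 and 26.8 TPM (1.02, or 0.52 above that median, adjusted p 0.0466). After TMM scaling 10 of the 17 fell and none rose, where 5.59% of all tested features were called lower and 4.3% higher. The list mixes genes of the amino-acid stress response with host genes of small nucleolar RNAs, and some of these were known to be lower in these data when the list was written, so the count is not independent evidence on NMD activity.

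**Figure D5:**
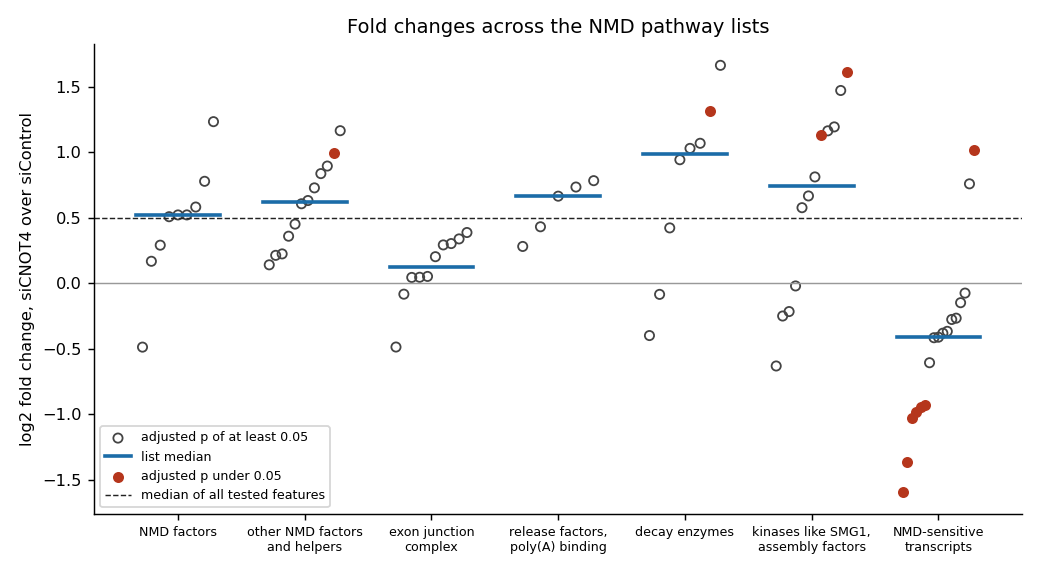
Log2 fold change, siCNOT4 over siControl (y axis), of every tested gene in the set of 9 NMD factors and the 6 pathway lists (x axis); filled points have a limma adjusted p under 0.05, blue lines are list medians, and the dashed line is the median of all tested features, 0.50. The list of NMD-sensitive transcripts has the lowest median, -0.41, and holds the 6 genes that fell.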

How the data were processed

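Poly(A)-selected stranded RNA-seq libraries of HEK293 cells (2 siControl, 2 siCNOT4) were used. Per the labels, groups come from sample titles. The authors deposited 1 table of TPM per library, named by gene symbol, per the file headers. The submitters' processing notes name FastQC 0.11.2, STAR 2.5.3a, featureCounts and the build hg19; whether counting used strand is not given in the sources used here, so overlapping antisense genes cannot be told apart.

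TPM was tested as log2(TPM + 1) on the 14208 features whose mean reached 1 TPM, with limma 3.58.1 (R 4.3.3; lmFit, eBayes with trend) and Benjamini-Hochberg adjustment over all of them at 0.05. The pseudocount understates fold changes of low genes. Whole reads were recovered from the TPM steps and whole-number gene lengths for 99.98% of tested features, at most 0.05 of a read from a whole count. The step was found from 9451 features, of which 96.71% lay within 0.02 nt of a whole length. The recovered reads served for totals, Poisson and Wilson intervals and limma-voom, which called 747 features higher and 980 lower after TMM scaling. For *SMG9* the recovered length and reads may be off by a whole factor, which leaves its TPM as it is. TMM factors were computed by a written-out version of the published method. Features matched GENCODE 29 by symbol (18438) or an older symbol (1010), and 1009 did not match. The fits were tested on simulated data.

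Named genes were the 9 members, *CNOT4* and, from each list, those with an adjusted p under 0.05, at most 6 by size of change; 1 further gene of this rule is not reported here and was left out of its list. The members and lists were chosen with earlier results of these data known. Alternatives were a pseudocount of 0.1, no filter, a minimum of 5 TPM, other scalings, removal of a length and GC trend, no variance trend, a replicate block and leaving out each library. Voom on recovered reads, and TMM scaling with each library left out, were chosen after seeing the data.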

Additional observations from a re-analysis of the deposited data

How the results depend on the processing

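With 2 libraries a group the precision of every fold change is limited. For the median tested feature, replicate 1 differed from replicate 2 by 0.38 in siControl and by -0.03 in siCNOT4. In *UPF3A*, *UPF3B* and *SMG9* the larger gap was the one between the siCNOT4 replicates. *UPF3B* kept its negative sign in all fits. Of the 9 factors, 1 was called (*UPF3B*, lower) after TMM scaling, quantile normalization, removal of the length and GC trend, and voom with TMM scaling. In the same order, those fits called 794, 1169, 1633 and 980 of all tested features lower, so calls in that direction were common in them. Leaving out single libraries gave 0 to 8 calls. Of all tested features, against 1792, 558 were called with a pseudocount of 0.1, 908 with no filter, 147 with at least 5 TPM, 543 with equal medians, 3145 with the trend removed, 756 without the variance trend and 450 to 11311 without single libraries. The pathway lists held 11 calls, against 5 with a pseudocount of 0.1, 5 with no filter, 5 with at least 5 TPM, 17 after quantile normalization, 2 with equal medians, 22 with the trend removed, 3 without the variance trend and 2 to 55 without single libraries. The log2 difference in the *UPF3A* to *UPF3B* ratio was 0.58 after quantile normalization and 0.59 to 0.75 without single libraries. The cause of these changes was not tested.

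With TMM scaling and siControl replicate 1 left out, *UPF3A* (-0.65) and *SMG9* (-0.44) were negative, against positive values on TPM as deposited. In that fit *UPF2* (-0.06), *SMG6* (-0.04) and *UPF3B* (-1.24) were negative too. *UPF1* (0.10), *SMG1* (1.165), *SMG5* (0.0255) and *SMG8* (0.22) were positive. In the settings that follow signs also changed, with none called. *UPF1* had -0.052 with TMM scaling, -0.054 with equal medians and -0.070 with voom and TMM scaling. *UPF2* had -0.032, -0.040 and -0.050 in these settings and -0.265 with the trend removed. *UPF3A* had -0.392, -0.394 and -0.420, then -0.340 with the trend removed, -0.312 after quantile normalization and -0.075 with voom alone. *SMG5* had -0.003 with voom and TMM scaling. *SMG6* had -0.027, -0.040 and -0.044, then -0.043 with the trend removed and -0.043 after quantile normalization. *SMG9* had -0.278, -0.271 and -0.298, then -0.248 and -0.094.

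The groups share replicate numbers in the labels. Across tested features, the replicate 1 minus replicate 2 differences in siControl and in siCNOT4 correlated at 0.171. Nothing in the labels says that a number marks a shared culture, so the numbers were not taken to pair the libraries. With a replicate block, 2 factors were called higher (*SMG1*, adjusted p 0.0153, and *SMG8*, adjusted p 0.0469), 3655 of all tested features and 22 genes of the pathway lists.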
